A study of Mus musculus with 3 samples.

Results

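The receptor for glucocorticoids, Nr3c1, and 6 genes that glucocorticoids are known to induce, Fkbp5, Zbtb16, Klf9, Sgk1, Tsc22d3 and Ddit4, were followed in single-cell RNA sequencing (scRNA-seq) of the mouse retina. These 7 genes, of 18545 genes in the matrix, were listed by name for their textbook role, and all 7 were detected. They were chosen with earlier results of these data known. Their levels were read in 21 clusters of cells, with Müller glia (MG, cluster 0) and endothelium (cluster 11) first. There were 3 groups of dark-reared mice aged 8 weeks on the C57BL/6J background: wild-type mice on base chow (WT), rd10 mice on the same base chow (rd10-vehicle) and rd10 mice on chow with tamsulosin, metoprolol and bromocriptine (rd10-TMB). The rd10 mice carry a point mutation in the rod phosphodiesterase gene Pde6b in all their cells and lose rods and then cones. Tamsulosin blocks alpha-1 adrenergic receptors, metoprolol blocks beta-1 adrenergic receptors and bromocriptine activates D2-like dopamine receptors. Each group was 1 library of pooled retinas, 1 from each of 4 mice per the labels, while the methods of the study give fewer rd10 mice. The rd10 mice were female and the WT pool held both sexes. A single library stood for each group, so nothing could be tested between groups, and every interval covers counting error only. A difference therefore holds for these libraries and cannot be told apart from differences between pools, dissections or hours of collection.

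Glucocorticoids enter the cell and bind the receptor, which waits in the cytoplasm with HSP90 and its co-chaperones and then moves to the nucleus. There it binds inverted repeats of a short site, the glucocorticoid response element (GRE), and raises or lowers the genes nearby. Müller glia are a main site of the receptor in the retina, and glucocorticoids act on retinal vessels as well. Fkbp5 is a co-chaperone that lowers the receptor's affinity for its ligand. Zbtb16 and Klf9 are transcription factors, Tsc22d3 encodes the anti-inflammatory protein GILZ, Sgk1 is a kinase that also answers to osmotic and other stress, and Ddit4 is an inhibitor of mTORC1 that also answers to hypoxia and energy stress.

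The 3 libraries held 4478 to 5952 cells, and their medians ran from 3509.5 to 4811.5 unique molecular identifiers (UMIs) per cell, with WT the shallowest. Levels are given as CPM, the UMIs of a gene per 1000000 UMIs summed over the cells of a cluster in 1 library, and where 3 values follow each other they stand for WT, rd10-vehicle and rd10-TMB in that order. Cluster 0 carried all 10 MG markers on its list and had 530, 2492 and 1748 cells, with 3319917, 22198511 and 16777299 UMIs. Cluster 11 had 137, 156 and 100 cells, with 1396149, 1804358 and 1257971 UMIs. It is called endothelium-like from 9 of 10 endothelial markers, but 9 of 9 pericyte or mural markers passed the same limits. Its mural markers summed to 6022, 9213 and 9402 CPM, and its ON cone bipolar markers to 1181, 165 and 194 CPM. Its OFF cone bipolar markers summed to 526, 53.2 and 62.8 CPM, and its red blood cell markers to 777, 3340 and 2820 CPM. The cluster was thus a mixture whose make-up differed between libraries, and ratios in its endothelium-marked cells alone are given after the results. Between 7 and 10 cell barcodes were shared by any pair of libraries.

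The promoters are shown because the 6 induced genes are known targets of 1 receptor, so that its motif is the first thing to look for in them. RefSeq on GRCm38 (mm10) gave 12 promoter windows for 5 of the 7 genes, each from 250 bases before a start site to 50 after it. Both are motifs of the receptor. The palindrome was searched as GNACA followed after any 3 bases by TGTNC, which reads alike on both strands, and its single arm as AGAACA on either strand, so that a palindrome can hold such arms. The palindrome stood in 1 of 12 windows, against 0.475% of all 32851 windows of that length in the table. The arm stood in 4 of 12 windows, against 6233 of all 32851. Sgk1 and Tsc22d3 gave more than 1 window each, so the 12 windows do not stand for 12 genes. The window with the palindrome was at the start site of an Sgk1 transcript, where GAACAGAATGTTC covered positions -188 to -176 before that start and overlapped 2 of the 3 arms there. Arms were in 3 windows of Sgk1 and in 1 of Tsc22d3, and none was in those of Fkbp5, Klf9 or Ddit4. A match is only a match of letters, and the distal elements that are known for several of these genes lie outside such windows. The 250 bases before the start are given 5′ to 3′ on the strand of the gene, with matches in capitals, for Sgk1 and Tsc22d3, which hold one, and for Fkbp5 and Ddit4, which hold none. In rd10 MG-like cells Sgk1 was higher than in WT and the other genes shown, with or without a match, were lower.
Sgk1, chr10:21993640-21993889, plus strand: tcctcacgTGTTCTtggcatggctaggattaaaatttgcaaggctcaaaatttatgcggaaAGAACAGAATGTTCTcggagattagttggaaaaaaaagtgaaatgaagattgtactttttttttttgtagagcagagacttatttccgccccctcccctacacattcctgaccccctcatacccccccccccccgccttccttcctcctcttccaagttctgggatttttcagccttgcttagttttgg
Tsc22d3, chrX:140600523-140600772, minus strand: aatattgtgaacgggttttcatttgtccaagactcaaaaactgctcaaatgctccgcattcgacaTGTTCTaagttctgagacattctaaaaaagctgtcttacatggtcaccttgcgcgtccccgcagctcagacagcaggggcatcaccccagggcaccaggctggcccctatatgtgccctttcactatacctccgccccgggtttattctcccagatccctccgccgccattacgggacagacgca
Fkbp5, chr17:28486150-28486399, minus strand: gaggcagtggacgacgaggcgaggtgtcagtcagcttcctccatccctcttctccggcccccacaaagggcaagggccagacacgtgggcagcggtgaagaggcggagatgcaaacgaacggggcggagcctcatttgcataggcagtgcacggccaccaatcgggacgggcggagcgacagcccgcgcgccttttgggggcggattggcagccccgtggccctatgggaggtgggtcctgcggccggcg
Ddit4, chr10:59951771-59952020, minus strand: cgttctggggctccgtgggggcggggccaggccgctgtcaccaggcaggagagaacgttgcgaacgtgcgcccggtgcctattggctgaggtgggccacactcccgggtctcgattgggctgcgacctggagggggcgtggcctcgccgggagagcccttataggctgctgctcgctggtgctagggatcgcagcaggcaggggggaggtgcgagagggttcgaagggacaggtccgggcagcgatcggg

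The genes lie on 6 chromosomes, with Sgk1 and Ddit4 both on chromosome 10. By RefSeq on mm10, Nr3c1 spans chr18:39410545-39519421, Fkbp5 chr17:28398753-28486149 and Zbtb16 chr9:48651797-48836225, all on the minus strand. Klf9 spans chr19:23141226-23168129 and Sgk1 chr10:21882184-21999903 on the plus strand. Tsc22d3 spans chrX:140539528-140600522 and Ddit4 chr10:59949675-59951770 on the minus strand. No other annotated gene overlapped the last 2000 bases of any of them, where tags from the 3′ end fall.

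By the mean of the 3 libraries, endothelium-like cells had the highest level of 5 of the 7 genes, while Sgk1 was led by rod-like and Fkbp5 by MG-like cells. The order was read over the 10 clusters with at least 50 cells in each library. The receptor Nr3c1 was highest in endothelium-like cells, with 198, 193 and 217 CPM, and this range lay above that of every other cluster compared. OFF cone bipolar-like cluster 7, MG-like cells and rod-like cells followed with means of 128, 116 and 105 CPM, and their ranges overlapped. The lowest levels were in rod bipolar-like cells (mean 27.9 CPM) and the unnamed clusters 10 and 6 (21.8 and 18.8 CPM), which overlapped as well.

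Zbtb16 was nearly restricted to 2 of the clusters compared. It had 55.2, 31.6 and 66.0 CPM in WT, rd10-vehicle and rd10-TMB endothelium-like cells and 26.8, 21.5 and 28.7 CPM in MG-like cells, and these ranges did not overlap. In the other 8 clusters compared its mean was at most 4.21 CPM. In rod-like cells 1, 1 and 0 UMIs were counted, and in cone-like cells 0, 1 and 1. After each cell was thinned to 1000 UMIs, a Zbtb16 UMI was seen in 0 of 954 WT rod-like cells, an exact upper bound of 0.386%, against 3.42% of 527 WT MG-like cells (2.04 to 5.34%). Without thinning it was seen in 1 of 1180 of the former and in 80 of 530 of the latter.

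Tsc22d3 was set apart in endothelium-like cells. Endothelium-like cells had 499, 400 and 358 CPM, while the next cluster, rod bipolar-like, had a mean of 47.0 CPM. All later neighbours in that order overlapped, and MG-like cells were in seventh place with a mean of 33.5 CPM. Microglia-like cells (cluster 13), too few in WT to be ranked, had 171 and 254 CPM in the rd10 libraries, vehicle first.

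Sgk1 was led by rods. Rod-like cells had 439, 734 and 776 CPM. Endothelium-like cells followed at 187, 285 and 270 CPM, with no overlap, and cone-like cells at a mean of 58.4 CPM. MG-like cells came after the cones, with a mean of 33.5 CPM. Among smaller clusters, pigment epithelium-like cells had 871, 422 and 805 CPM, on 42, 59 and 34 UMIs.

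Klf9 and Ddit4 shared the 2 leading clusters by the mean of the 3 libraries. Klf9 was led by endothelium-like cells (624, 552 and 494 CPM) and MG-like cells (512, 465 and 384 CPM), whose ranges overlapped, and rod bipolar-like cells were lowest with a mean of 96.9 CPM. Ddit4 was led by the mean in endothelium-like (159 CPM), MG-like (153 CPM) and rod-like cells (147 CPM), whose ranges overlapped. The order differed by library. In WT, MG-like cells (267 CPM) lay above endothelium-like cells (221 CPM). In rd10-vehicle and rd10-TMB, rod-like cells (137 and 156 CPM) lay above both of these clusters. Klf9 and Ddit4 were almost absent from microglia-like cells of the rd10 libraries, where Klf9 had 2 and 1 UMIs and Ddit4 0 and 2 UMIs in 322484 and 231926 UMIs. Fkbp5 was highest in MG-like cells (mean 33.4 CPM) and OFF cone bipolar-like cluster 7 (31.8 CPM), which overlapped, and lowest in rod bipolar-like cells (3.19 CPM). In microglia-like cells Fkbp5 stood at 93.0 and 103 CPM in rd10-vehicle and rd10-TMB, on 30 and 24 UMIs.

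**Figure D1:**
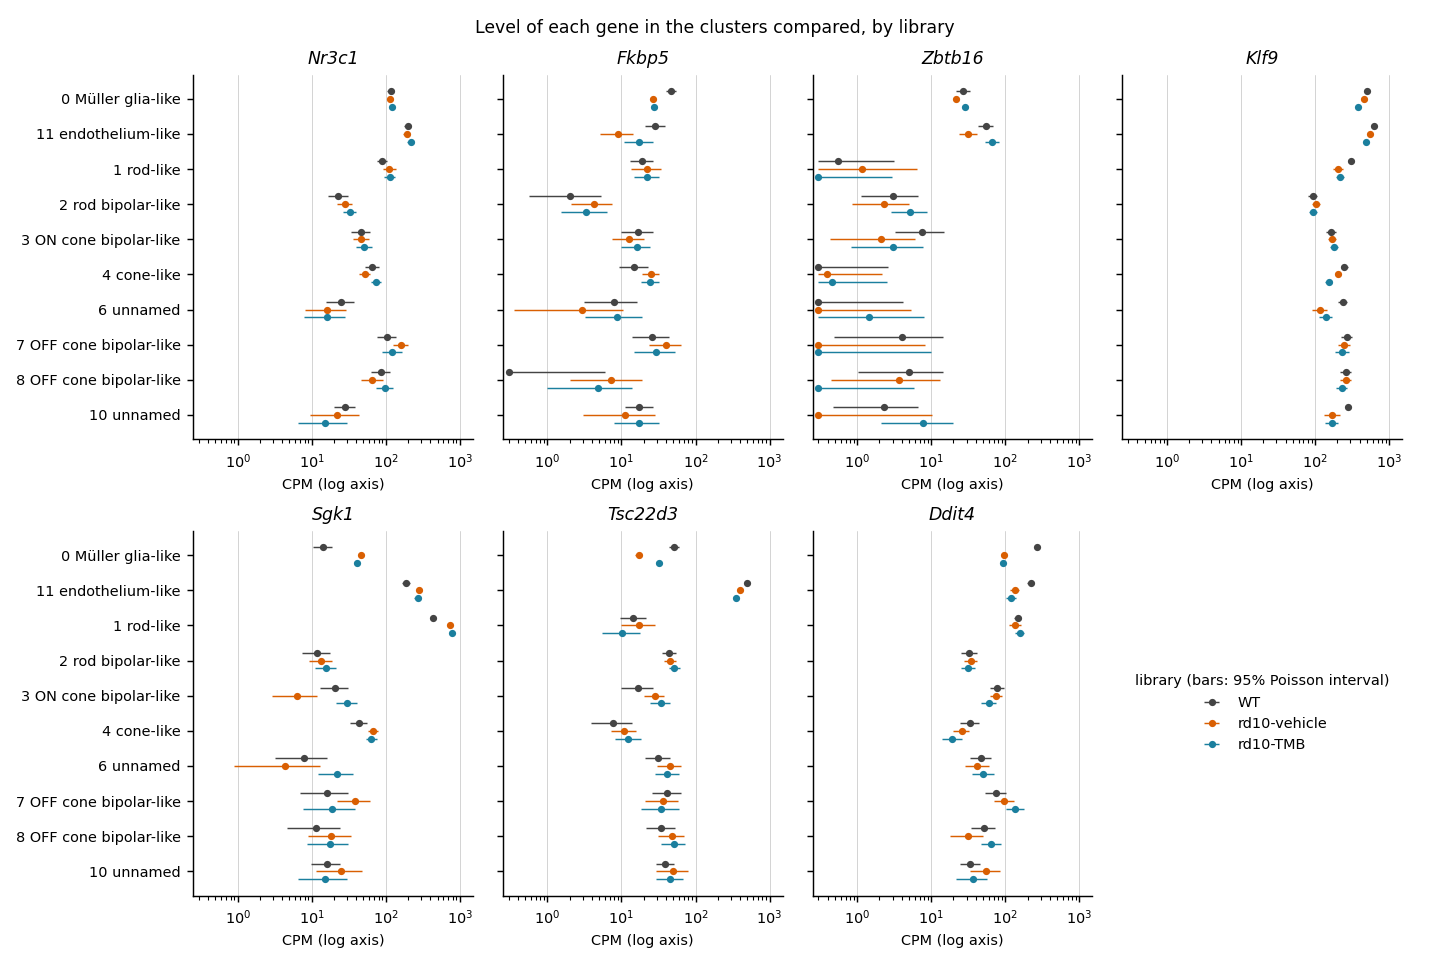
Level of each gene (CPM, log axis) in the 10 clusters compared, with 1 point per library and 95% Poisson intervals; a count of 0 is drawn near the left edge. Zbtb16 is seen above a mean of 4.21 CPM only in MG-like and endothelium-like cells, Tsc22d3 is led by endothelium-like cells and Sgk1 by rod-like cells.

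In MG-like cells the receptor itself hardly differed between libraries, while its target genes went different ways. Nr3c1 was at 116 CPM (95% Poisson interval 105 to 128), 113 CPM (109 to 118) and 120 CPM (115 to 126). All 3 ratios were at most 0.09 from 0 on the log2 scale. Against WT, rd10-vehicle had 1 of the 7 genes at least 1.5-fold higher and 3 at least 1.5-fold lower, where 8.64% and 9.31% of all 12404 genes tested passed that limit upwards and downwards. For rd10-TMB against WT the counts were again 1 higher and 3 lower, with 6.64% and 8.46% of all genes. Between rd10-TMB and rd10-vehicle, 1 gene was higher and 0 lower, with 1.10% and 2.20% of all genes. The median log2 ratio of the 7 genes was -0.33, -0.42 and 0.04 for these pairs, against -0.06, -0.08 and -0.02 over all genes tested. The first 2 comparisons share the WT library and are not independent of each other.

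Ddit4 was lower by a like amount in both rd10 libraries. WT stood at 267 CPM (250 to 285) and the others at 96.9 and 93.8 CPM, and the rd10 libraries overlapped each other but not WT. The log2 ratio was -1.46 (exact conditional interval -1.58 to -1.35) for rd10-vehicle and -1.51 (-1.63 to -1.39) for rd10-TMB over WT, and -0.05 (-0.14 to 0.05) between the rd10 libraries. Over all alternatives in these cells the first ratio lay between -1.57 and -1.35.

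Fkbp5, the feedback regulator of the receptor, was also lower in both rd10 libraries than in WT, at a smaller size. Its level was 46.7, 26.4 and 27.1 CPM. The log2 ratios over WT were -0.83 (-1.08 to -0.56) and -0.79 (-1.05 to -0.51), and the rd10 libraries differed by 0.04 (-0.14 to 0.22). With each cell thinned to 1000 UMIs the ratios over WT were -0.53 and -0.20, under the limit of 0.58.

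Tsc22d3 differed between all 3 libraries, with rd10-TMB between the other two. The levels were 51.5 CPM (171 UMIs), 17.03 CPM (378 UMIs) and 31.9 CPM (536 UMIs), and none of the intervals overlapped. The log2 ratio was -1.60 (-1.86 to -1.33) for rd10-vehicle over WT, -0.69 (-0.94 to -0.43) for rd10-TMB over WT and 0.91 (0.72 to 1.10) for rd10-TMB over rd10-vehicle. The last value was a 1.87-fold higher level, the 30th highest of 13021 genes tested. It lay between 0.90 and 1.19 over the 11 alternatives, while the ratio of rd10-TMB over WT was past the limit in 9 of 13. Against the WT cells with Y-linked and no Xist UMIs alone, that ratio was -0.27, and it was -0.28 after thinning.

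Sgk1 went the other way. Its level was 14.2 CPM (10.4 to 18.8), 46.2 CPM (43.4 to 49.1) and 40.3 CPM (37.3 to 43.4), so that both rd10 libraries lay above WT. The log2 ratios over WT were 1.68 (1.28 to 2.16) and 1.48 (1.08 to 1.97), and rd10-TMB over rd10-vehicle was -0.20 (-0.34 to -0.06). With each cell thinned to 1000 UMIs the ratios over WT were 0.92 and 0.64.

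Markers of some other cells and of reactive glia moved with this difference, while those of others went the other way. Rod markers summed to 1086, 1586 and 1696 CPM in MG-like cells. Markers of the lens (1155, 2251 and 2334 CPM), of cones (163, 334 and 403 CPM) and of astrocytes (772, 1192 and 1128 CPM) were also above WT in both rd10 libraries. Markers of amacrine cells (816, 620 and 623 CPM) and ON cone bipolar cells (242, 174 and 210 CPM) were below WT in both. So were those of OFF cone bipolar cells (18.4, 8.60 and 8.23 CPM). At the ratio of Sgk1 to rod markers in rod-like cells of the same library, those markers would bring 8.18, 20.6 and 21.9 CPM of Sgk1 with them, which leaves 5.98, 25.5 and 18.4 CPM. Cells with a UMI of Lcn2, a secreted protein of reactive glia, made up 1.70, 26.2 and 17.2% of MG-like cells. Whether any of these set the level of Sgk1 was not tested. Sgk1 had 79.8 CPM in rd10-vehicle cells with an Lcn2 UMI and 29.2 CPM in those without, and 84.7 against 26.1 CPM in rd10-TMB. The Lcn2-marked cells were also deeper, with a median of 10153 against 8175 UMIs in rd10-vehicle. Among cells without an Lcn2 UMI, the log2 ratios of Sgk1 over WT were 1.10 and 0.94.

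The difference in Tsc22d3 between the rd10 libraries was as large without the Lcn2-marked cells, with a log2 ratio of 0.96. For rd10-vehicle and then rd10-TMB, cells without an Lcn2 UMI had 18.2 CPM (16.1 to 20.6) and 35.6 CPM (32.4 to 39.1), and those with one had 14.6 and 20.4 CPM. Endothelial markers, from the cells richest in Tsc22d3, summed to 1490 and 1448 CPM in MG-like cells of these libraries, a list that holds Kdr, which marks MG-like cells as well. Red blood cell markers summed to 0.602, 248 and 1.01 CPM in MG-like cells, so that they also set rd10-vehicle apart, and their part in the levels of Tsc22d3 was not tested.

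Klf9 and Zbtb16 were inside the 1.5-fold limit in MG-like cells as reported, and some alternatives took them past it. Klf9 had 512, 465 and 384 CPM, whose intervals did not overlap, with a log2 ratio of -0.42 (-0.49 to -0.34) for rd10-TMB over WT and -0.28 (-0.32 to -0.23) over rd10-vehicle. Against the Xist-marked WT cells alone, Klf9 for rd10-TMB over WT was -0.59, just past the limit, and against those with Y-linked and no Xist UMIs it was -0.28. Zbtb16 had 26.8, 21.5 and 28.7 CPM, with 0.42 (0.23 to 0.60) for rd10-TMB over rd10-vehicle and 0.04 after thinning. Thinned, Zbtb16 over WT was -0.65 in rd10-vehicle and -0.60 with rd10-TMB, on 18 UMIs in WT.

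Zbtb16 also differed inside the WT pool, which the labels describe as of both sexes. WT MG-like cells in which Xist but no Y-linked gene was counted had 19.7 CPM (13.5 to 27.8), and those with Y-linked but no Xist UMIs had 42.4 CPM (30.8 to 57.0). The ratio of rd10-vehicle over WT was accordingly 0.08 against the first cells and -1.01 against the second. In endothelium-like cells the same split gave 37.6 CPM (25.4 to 53.7) and 96.5 CPM (69.9 to 130). Other genes differed in the same split, Klf9 in MG-like cells with 576 CPM (539 to 614) against 465 CPM (424 to 508), and Nr3c1 in endothelium-like cells with 248 CPM (215 to 285) against 141 CPM (109 to 181). Against these WT subsets Nr3c1 for rd10-vehicle was at -0.37 and 0.43. These are cells of a few animals, so sex and animal cannot be told apart.

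**Figure D2:**
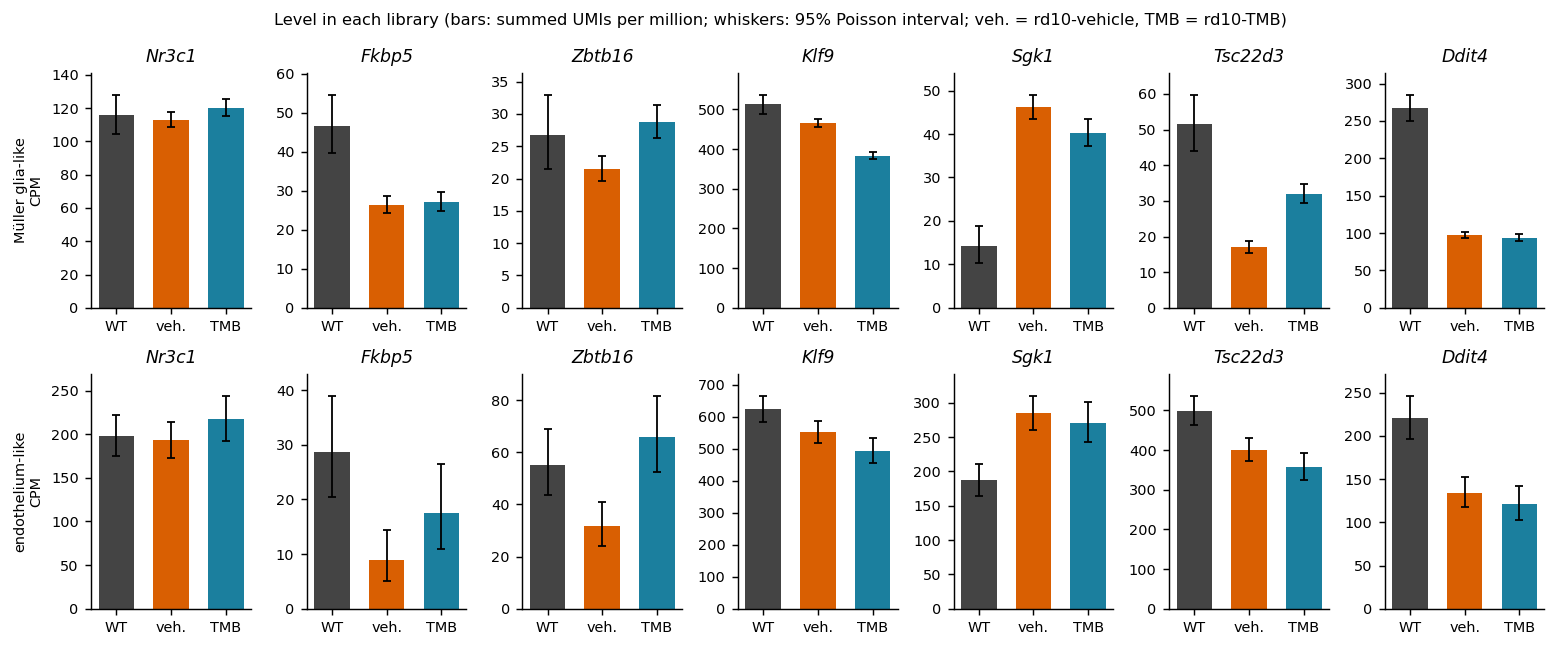
Level in CPM of each gene in MG-like (upper) and endothelium-like cells (lower), as bars for the 3 libraries with 95% Poisson intervals. Ddit4 and Fkbp5 are lower and Sgk1 is higher in both rd10 libraries than in WT, while Tsc22d3 separates the 3 libraries in MG-like cells (51.5, 17.03 and 31.9 CPM) and Zbtb16 is lowest in rd10-vehicle in both.

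**Figure D3:**
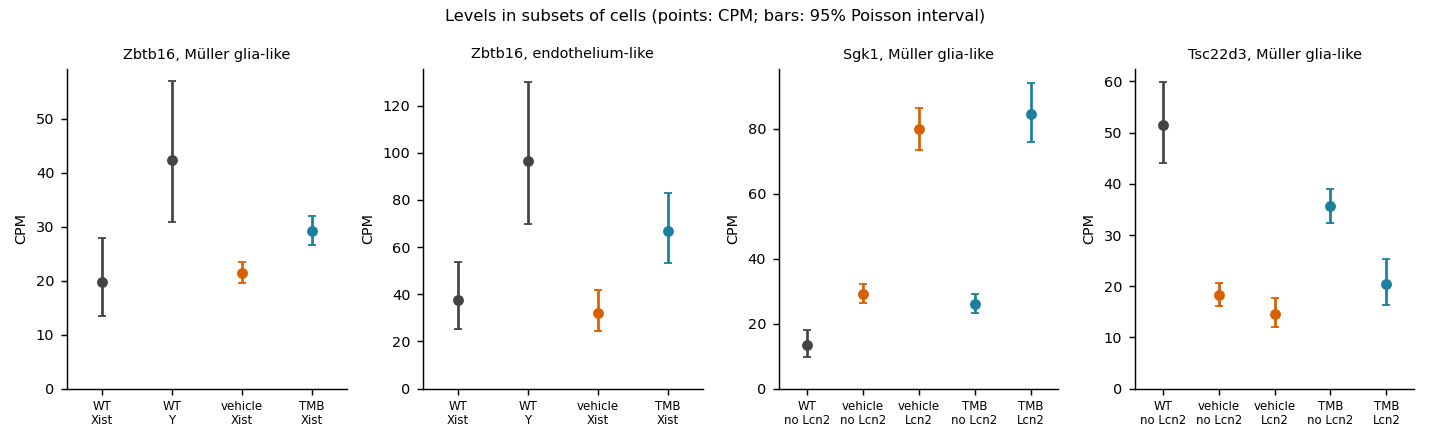
CPM with 95% Poisson intervals in subsets of cells: Zbtb16 in cells sorted by Xist or Y-linked UMIs, and Sgk1 and Tsc22d3 in MG-like cells with or without an Lcn2 UMI. Zbtb16 differs between the WT subsets (19.7 and 42.4 CPM in MG-like cells), and Sgk1 is higher in Lcn2-marked cells of both rd10 libraries.

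In endothelium-like cells Nr3c1 was within the limit when all cells were taken, and Ddit4 and Fkbp5 were lower in both rd10 libraries, as in MG-like cells. Nr3c1 had log2 ratios of -0.04 (-0.27 to 0.20), 0.13 (-0.11 to 0.38) and 0.17 (-0.06 to 0.40) for the 3 pairs. Its level depended on the cells taken: among those of 5000 to 10000 UMIs its ratios over WT were 0.99 and 0.95, on 75 and 48 against 50 UMIs, and rd10-TMB over WT was past the limit in 3 of 13 alternatives. Against WT, rd10-vehicle had 1 gene higher and 3 lower, with 6.90% and 11.4% of the 7585 genes tested. rd10-TMB had 0 higher and 2 lower, with 6.54% and 11.5%. Of 6 genes with enough UMIs for rd10-TMB over rd10-vehicle, 1 was higher and 0 lower, with 2.96% and 3.64% of all genes. The median log2 ratios were -0.32, -0.33 and -0.11, against -0.01, -0.02 and 0.00 over all genes.

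Ddit4 had the narrower intervals of this pair. Ddit4 stood at 221 CPM (197 to 247), 134 CPM (118 to 152) and 121 CPM (102 to 142), with log2 ratios over WT of -0.72 (-0.97 to -0.47) and -0.86 (-1.16 to -0.58). Fkbp5 rested on 40, 16 and 22 UMIs, or 28.7, 8.87 and 17.5 CPM. Its ratio over WT was -1.64 (-2.63 to -0.82) for rd10-vehicle and -0.68 (-1.53 to 0.07) for rd10-TMB, an interval that spans 0. Among cells of 5000 to 10000 UMIs the first ratio was -0.07, on 4 against 6 UMIs, and after thinning the second was -0.30, on 2 against 4 UMIs.

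Zbtb16 was lower in rd10-vehicle than in either other library, with 77, 57 and 83 UMIs and 55.2, 31.6 and 66.0 CPM. The log2 ratio was -0.80 (-1.32 to -0.29) for rd10-vehicle over WT and 1.05 (0.56 to 1.58) for rd10-TMB over rd10-vehicle, the 21st highest of 7174 genes tested. Against the Xist-marked WT cells alone, rd10-vehicle had 32.0 CPM (24.2 to 41.6) and WT 37.6 CPM, and these intervals overlapped.

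Sgk1 had 187, 285 and 270 CPM, a log2 ratio over WT of 0.60 (0.39 to 0.83) for rd10-vehicle and 0.53 (0.29 to 0.77) for rd10-TMB. Tsc22d3 and Klf9, at high levels here, stayed inside the limit, with ratios over WT of -0.32 and -0.48 for Tsc22d3 and -0.18 and -0.33 for Klf9. Over all cells the 2 genes thus had their highest level in WT and their lowest in rd10-TMB, but this order turned with the cells taken. Among cells of 5000 to 10000 UMIs Tsc22d3 over WT was at 0.62 and 0.52, and after thinning Klf9 over WT was at 0.46 and 0.13 and Tsc22d3 for rd10-TMB over rd10-vehicle at 0.23. For Tsc22d3 the order over all cells differs from MG-like cells, where the lowest level was in rd10-vehicle; the log2 ratio of rd10-TMB over rd10-vehicle was -0.16 (-0.33 to 0.01) here and 0.91 (0.72 to 1.10) there.

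The mixture in this cluster touched some of these values. Cells with more endothelial than mural marker UMIs numbered 73, 108 and 64, and those with more mural UMIs 27, 42 and 29, while 57, 61 and 38 cells lay within 1.5-fold of the dividing line. In the first cells Tsc22d3 had 650, 444 and 398 CPM and Sgk1 244, 309 and 283 CPM. Their log2 ratio over WT was -0.55 and -0.71 for Tsc22d3 and 0.34 and 0.21 for Sgk1, so that Sgk1 no longer passed the limit. Ddit4 at -1.02 and -0.98 and Zbtb16 at 0.98 for rd10-TMB over rd10-vehicle still did. In these cells Nr3c1 was at -0.30 and 0.10 over WT and 0.39 between the rd10 libraries, Fkbp5 at -1.50 and -0.75 over WT, Klf9 at -0.38 and -0.55 and Zbtb16 at -1.19 and -0.20. The 37 WT cells with equal scores had no counterpart of that number in rd10, where 6 and 7 such cells were found. Among cells of 5000 to 10000 UMIs, Ddit4 for rd10-vehicle over WT was 0.18 and Zbtb16 0.11, on 57 against 67 and 12 against 15 UMIs, with rd10-vehicle first. For rd10-TMB over rd10-vehicle, Zbtb16 was at 0.21 in those cells, on 9 against 12 UMIs, and so no longer past the limit, and Ddit4 was at -1.02, on 18 against 57 UMIs.

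**Figure D4:**
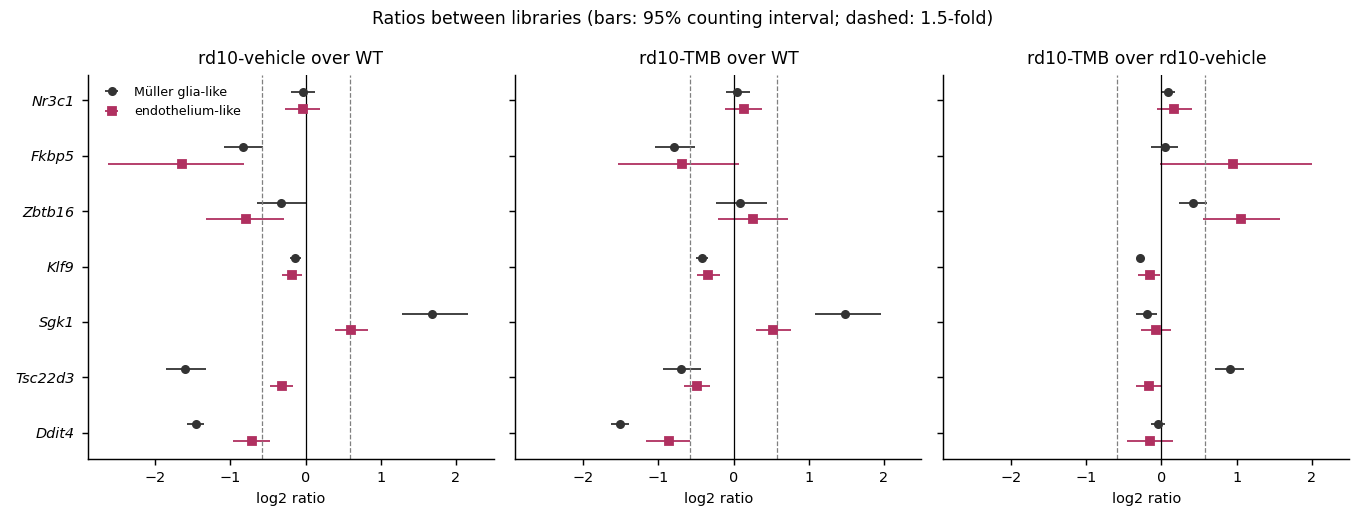
Log2 ratios of the 7 genes for the 3 pairs of libraries, with 95% counting intervals, in MG-like and endothelium-like cells; dashed lines mark the 1.5-fold limit. Nr3c1 lies within 0.2 of 0 in all, Ddit4 and Fkbp5 lie below 0 over WT, and Tsc22d3 in MG-like cells (0.91) and Zbtb16 in endothelium-like cells (1.05) are the tested genes past the limit for rd10-TMB over rd10-vehicle.

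Outside these 2 clusters, 93 ratios had at least 50 UMIs over 8 clusters, and 11 were past the limit upwards and 6 downwards, beside 4.04% and 5.10% of all genes over the same clusters and pairs. In 3 of these 17 ratios the interval spans 0. Sgk1 was higher in both rd10 libraries in rod-like cells, with log2 ratios over WT of 0.74 (0.59 to 0.90) and 0.82 (0.69 to 0.96), where 5.77% and 4.50% of all genes tested were past the limit upwards. In cone-like cells Sgk1 was higher in rd10-vehicle (0.63, 0.21 to 1.08), where 3.89% of all genes passed upwards, and after thinning this was 0.25. Fkbp5 was higher in rd10 cone-like cells, at 14.7, 25.0 and 24.4 CPM, with ratios over WT of 0.71 (0.03 to 1.55) and 0.69 (-0.03 to 1.53), where 3.89% and 3.20% of all genes passed upwards. After thinning the first of these was 0.04, and it passed the limit in 9 of 12 alternatives and the second in 8 of 12. The receptor was higher in rd10-vehicle in OFF cone bipolar-like cluster 7, with 103, 159 and 123 CPM and a ratio of 0.61 (0.09 to 1.17), where 4.46% of all genes passed upwards. It was past the limit in 7 of 12 alternatives, and was 0.34 against the Xist-marked WT cells alone.

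Klf9 gave 5 of the 6 lower values. In cone-like cells it had 250.5, 203 and 153 CPM, with -0.71 (-0.93 to -0.49) for rd10-TMB over WT, where 4.96% of all genes passed downwards. In the unnamed cluster 6 it was 238, 116 and 141 CPM and in cluster 10 it was 281, 171 and 168 CPM, and in both the ratios over WT were past the limit in both rd10 libraries. In cluster 6 both passed in 11 of 12 alternatives, while rd10-vehicle over WT in cluster 10 passed in 9 of 12 and was -0.05 among cells of 5000 to 10000 UMIs. Of all genes, 7.70% and 8.03% passed downwards in cluster 6 and 10.9% and 8.68% in cluster 10. Between the rd10 libraries, no ratio of Klf9 outside MG-like and endothelium-like cells was past the limit.

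Ddit4, lower in rd10 MG-like cells, was lower in cone-like cells as well, with 33.7, 25.7 and 19.3 CPM and a ratio of -0.80 (-1.43 to -0.17) for rd10-TMB over WT, where 4.96% of all genes passed downwards. After thinning this ratio turned to 0.78, on 9 against 3 UMIs. Other types differed from this. Rod-like cells had 147, 137 and 156 CPM and rod bipolar-like cells 32.6, 34.0 and 31.9 CPM. OFF cone bipolar-like cluster 7 had 75.5, 96.3 and 136 CPM, a log2 ratio of 0.84 (0.22 to 1.496) for rd10-TMB over WT, where 4.05% of all genes passed upwards. In the other OFF cone bipolar-like cluster, 8, rd10-TMB was above rd10-vehicle by 1.01 (0.21 to 1.97), on 41 and 17 UMIs, where 2.70% passed, and at -0.48 after thinning, on 3 against 5 UMIs. In cluster 10 the ratio of rd10-vehicle over WT was 0.76 (-0.12 to 1.52), where 13.2% passed upwards. The only member of the list with a higher value in ON cone bipolar-like cells was Tsc22d3, with 16.8, 28.0 and 33.7 CPM. Its ratio over WT was 0.70 (-0.10 to 1.63) in rd10-vehicle and 0.96 (0.19 to 1.89) in rd10-TMB, where 3.54% and 3.48% of all genes passed upwards.

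Of other genes known as glucocorticoid targets, more were higher than lower in rd10 MG-like cells. This list and those that follow were chosen with earlier results of these data known, so their counts are description and carry no test. From a list of 30, 26 had enough UMIs for rd10-vehicle over WT, and 13 were higher and 2 lower, beside 8.64% and 9.31% of all genes, with a median log2 ratio of 0.48 against -0.06 over all genes. Those with the highest ratios were Lcn2 (3.77), Gpd1, which had 77 UMIs in rd10-vehicle and 0 in WT, the metallothionein Mt2 (2.28) and the transcription factor Cebpb (1.97). Fam107a (-0.98) and the amino acid transporter Slc38a2 (-0.68) were the lower ones. Many of the higher genes also answer to inflammation and injury. For rd10-TMB over WT, 8 were higher and 3 lower of 25, beside 6.64% and 8.46%, with a median of 0.11 against -0.08. Between the rd10 libraries 0 were higher and 4 lower of 27, beside 1.10% and 2.20%, namely Rasd1 (-1.11), Lcn2 (-0.83), the NF-kappaB inhibitor Nfkbia (-0.71) and the cell cycle inhibitor Cdkn1a (-0.63). Tsc22d3 was higher in rd10-TMB in these cells, where none of the listed genes was.

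In endothelium-like cells the same list had 9 higher and 3 lower of 24 for rd10-vehicle over WT, beside 6.90% and 11.4% of all genes, with a median of 0.49 against -0.01, led by Cebpb (2.26) and Irs2 (1.34) upwards and by Arrdc3 (-1.03) and Cited2 (-0.87) downwards. For rd10-TMB over WT it had 8 higher and 1 lower of 23, beside 6.54% and 11.5%, the lower gene being Angptl4 (-0.76). For rd10-TMB over rd10-vehicle, Arrdc3 was higher (0.59, -0.07 to 1.25) and Mt2 (-1.26) and Cdkn1a (-0.91) were lower, of 24, beside 2.96% and 3.64%.

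Most genes of the receptor's machinery, its chaperones, coregulators and the enzymes of its ligand, were within the limit. Of its 23 genes, 20 were tested in MG-like cells for rd10-vehicle over WT, and 2 were higher, the heat shock genes Dnajb1 (1.16) and Hspa1a (0.65), with 0 lower, a share upwards near the 8.64% of all genes. The same 2 were higher for rd10-TMB over WT, beside 6.64%. Between the rd10 libraries only Hsd11b2, which inactivates the ligand, was higher of 21 (0.85, 0.20 to 1.53), at 2.86 against 1.58 CPM, beside 1.10% of all genes. In endothelium-like cells Dnajb1 was the 1 of 20 higher over WT in each rd10 library (0.92 and 0.64), beside 6.90% and 6.54% of all genes. Of the heat shock genes, Hspa1b was lower for rd10-TMB over WT (-0.68), beside 11.5%, and Hspa1b (-0.88) and Hspa1a (-0.66) for rd10-TMB over rd10-vehicle, beside 3.64%.

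Dissociation can raise immediate-early genes, and some of these were higher in rd10 MG-like and endothelium-like cells. In MG-like cells 9 of 16 were higher in rd10-vehicle than in WT and 0 lower, beside 8.64% and 9.31% of all genes. They were led by Atf3 (2.83), Egr2 (1.72), Klf6 (1.71) and Nr4a1 (1.63). For rd10-TMB over WT 9 of 16 were higher and 0 lower, beside 6.64% and 8.46% of all genes. The medians over WT were 0.63 and 0.62 against -0.06 and -0.08 over all genes. In endothelium-like cells the counts were 12 and 11 of 16, again with 0 lower, beside 6.90% and 6.54% of all genes higher, with medians of 0.73 and 0.72 against -0.01 and -0.02. The same list had 10 of 12 higher in rd10-vehicle than in WT in rod-like cells, 9 of 13 in rod bipolar-like and 12 of 13 in cone-like cells, each with 0 lower, beside 5.77, 4.03 and 3.89% of all genes higher, and with medians of 1.53, 1.26 and 1.12 against -0.05, 0.02 and -0.05 over all genes. In the other 5 clusters compared between 0 and 4 were higher, the 4 being of 9 in cluster 10, where 13.2% of all genes were. Nr4a1 in ON cone bipolar-like cells and Fos and Fosb in cluster 6 were lower, beside 7.19% and 7.70% of all genes. Between the rd10 libraries 0 of 16 were higher or lower in MG-like and in endothelium-like cells. Of all genes, 1.10% and 2.20% were higher and lower in the first and 2.96% and 3.64% in the second. For rd10-TMB over rd10-vehicle in cone-like cells 4 of 13 were lower, Klf2, Zfp36, Atf3 and Junb, beside 2.73%. In rod bipolar-like cells 4 of 13 were lower, Zfp36, Fosb, Junb and Atf3, beside 2.64%. In rod-like cells 1 of 12 was lower, Zfp36, beside 4.03%. In these types 0 were higher. The part of the immediate-early differences in the values of Sgk1 and Ddit4 over WT was not tested.

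Hypoxia genes, which share Ddit4 with the glucocorticoid response, were mixed in MG-like and endothelium-like cells and mostly lower in cone-like cells. In MG-like cells for rd10-vehicle over WT, Adm (3.12, 1.60 to 9.42, on 1 UMI in WT) and Ndrg1 (1.38) were higher and Vegfa (-1.02) and the collagen hydroxylase P4ha1 (-0.60) lower, of 10 tested, with a median of -0.31 against -0.06 over all genes and 8.64% and 9.31% of all genes higher and lower. For rd10-TMB over WT, Ndrg1 (1.01) was higher and Vegfa (-0.59) lower, of 9, beside 6.64% and 8.46% of all genes. Between the rd10 libraries Adm was lower (-0.96) of 10, beside 2.20%. In endothelium-like cells Pgk1 (-1.20) and Bnip3 (-0.78) were lower in rd10-vehicle than in WT, of 8 tested, where 11.4% of all genes were lower and the medians were -0.06 for the list and -0.01 for all genes. There, Adm (0.99) for rd10-TMB over WT was higher and Vegfa (-1.15) and Pgk1 (-0.93) lower, of 9, beside 6.54% and 11.5%, with a median of 0.15 against -0.02. For rd10-TMB over rd10-vehicle, Adm was higher here (0.71) of 8, beside 2.96%, with a median of 0.36 against 0.00, while it was lower in MG-like cells. In cone-like cells 6 of 7 were lower in rd10-vehicle and 5 of 7 in rd10-TMB than in WT, beside 4.92% and 4.96%. There 0 were higher, and the medians were -0.62 and -0.72 against -0.05 and -0.04 over all genes. In rod-like cells 3 of 9 and 4 of 9 were lower over WT and 0 higher, beside 8.47% and 7.25% lower.

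Clock genes, several of which are also driven by glucocorticoids, differed between rd10-vehicle and the other libraries in MG-like and endothelium-like cells. In MG-like cells 9 of 14 were lower and 2 higher in rd10-vehicle than in WT, beside 9.31% and 8.64% of all genes, with Ciart (-2.85), Per2 (-1.54), Hlf (-1.13) and Per3 (-0.99) the lowest and a median of -0.83 against -0.06. For rd10-TMB over WT, 2 of 14 were lower and 1 higher, beside 8.46% and 6.64%, with a median of -0.19 against -0.08. For rd10-TMB over rd10-vehicle, 5 of 15 were higher, led by Ciart (1.73), Per2 (1.48) and Dbp (0.79), and 3 lower, Npas2 (-1.18), Arntl (-0.77) and Clock (-0.63), beside 1.10% and 2.20% of all genes, with a median of 0.44 against -0.02. In endothelium-like cells 6 of 10 were lower and 0 higher in rd10-vehicle than in WT, beside 11.4% and 6.90% of all genes, with a median of -0.89 against -0.01. There, Per2 (1.15) and Ciart (0.72) for rd10-TMB over WT were higher and Bhlhe41 (-2.57) and Clock (-0.75) lower, of 12, beside 6.54% and 11.5%. Among these cells 7 of 11 were higher and 1 lower for rd10-TMB over rd10-vehicle, beside 2.96% and 3.64% of all genes and with a median of 1.02 against 0.00, with Ciart at 2.49, Per2 at 1.75 and Dbp at 1.45 against Arntl at -1.66. In rod-like cells both rd10 libraries had lower clock genes, 5 of 11 and 4 of 11 over WT, where 8.47% and 7.25% of all genes were lower, the 4 being Cry1, Nr1d2, Hlf and Per3. For rd10-TMB over rd10-vehicle in rod-like cells, 3 of 11 were higher, Per3, Per1 and Tef, and 0 lower. Of all genes, 2.89% and 4.03% were higher and lower there, and the median was 0.22 against 0.02. Tsc22d3 in MG-like cells and Zbtb16 in endothelium-like cells also had their lowest level in rd10-vehicle. The hour of tissue collection was not given in the sources used here, and its part in these values was not tested.

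Over 35 profiles, each a cluster in 1 library with at least 50 cells, the log2 levels of Klf9 and Ddit4 were the most alike of the 21 pairs among the 7 genes (Pearson's r = 0.85), followed by Zbtb16 and Tsc22d3 (0.62) and Nr3c1 and Sgk1 (0.60). Among 13331 genes with at least 200 UMIs, Ddit4 was the gene most like Klf9 and Klf9 the one most like Ddit4. The genes nearest to Klf9 after it were Fam118a (0.82) and Amotl2 (0.81), and those nearest to Ddit4 were Nbeal1 (0.81) and Spaca6 (0.81). Nr3c1 was most like Bcl2l11 (0.84), Egr1 (0.82) and Ier2 (0.80), and Sgk1 most like Hmgb2 (0.88), Atf4 (0.87) and Stk17b (0.84). Tsc22d3 was nearest to BC028528 (0.86), Rhob (0.86) and Adam15 (0.85), and Zbtb16 to Plod1 (0.85), Bmp5 (0.84) and Stard8 (0.84). Fkbp5 had the loosest match, with Foxn2 (0.72), Pid1 (0.67) and Kif18a (0.65). The profiles of 1 library share its depth and free RNA, so these values describe the profiles and carry no test.

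**Figure D5:**
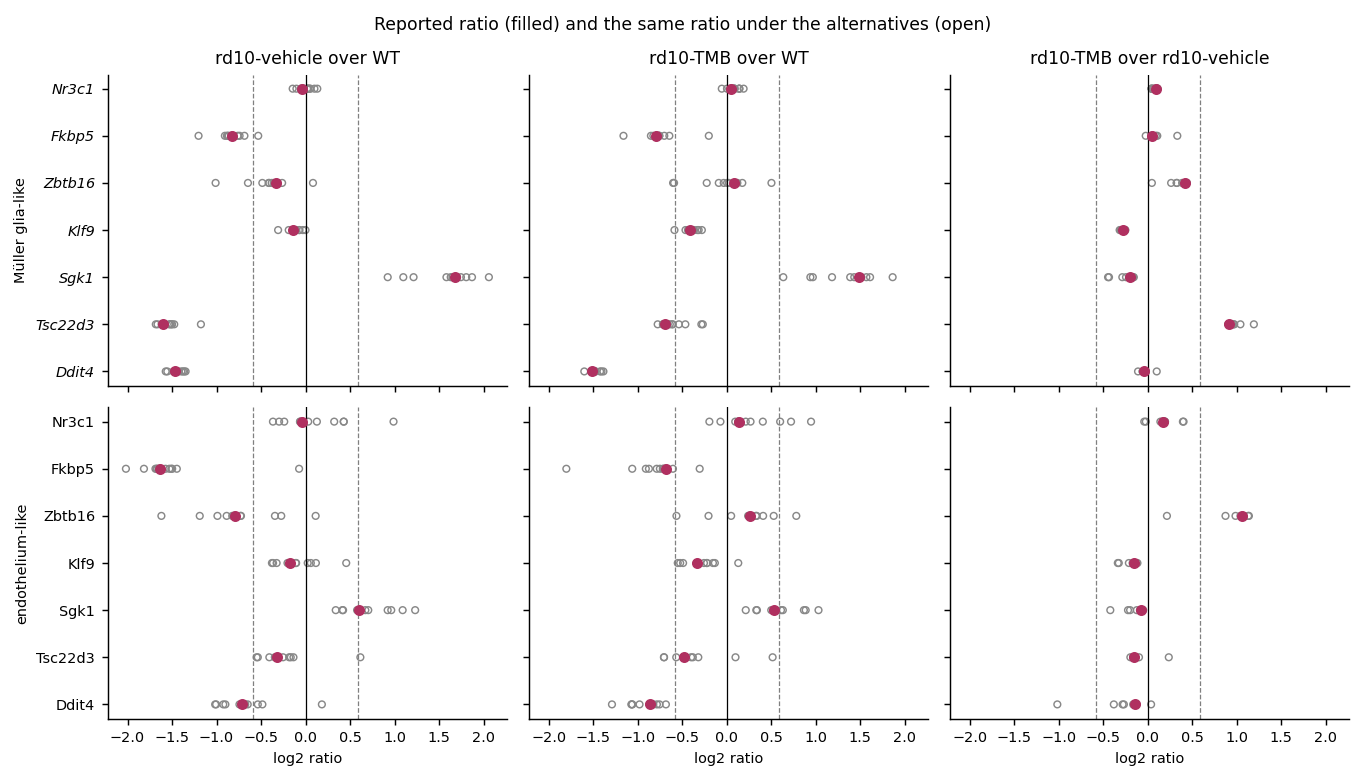
Reported log2 ratio (filled) and the same ratio under each other way of processing (open) in MG-like (upper) and endothelium-like cells (lower); dashed lines mark the 1.5-fold limit. In MG-like cells Ddit4 and Tsc22d3 over WT and Tsc22d3 between the rd10 libraries keep their side of 0 throughout, while Zbtb16 over WT crosses it.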

How the data were processed

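Retinas were dissociated with papain and 1 droplet library (10x, v3 chemistry) was made per group. Per the submitters' processing notes the reads were handled with Cell Ranger (6.0.1) on mm10 and with Seurat (3.2.2). Doublets had been taken out by the study, which also set a floor of 500 genes per cell, and no caller or filter was added here. Deposited values are on a natural log scale, as ln(1 + x) with x the UMIs scaled to 10000 in each cell. Total counts, library and cluster of every cell come from the table deposited beside them by the authors. UMIs were recovered from these: 32620606 of 32620606 entries came out whole within 0.001, and sums matched in 15242 of 15242 cells.

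UMIs were summed per cluster and library. Log2 ratios had a pseudocount of 1 UMI, and a gene was tested for size with at least 50 UMIs over the pair. Being called higher or lower meant a 1.5-fold limit only, with no p-value. Intervals (95%) are exact Poisson for levels, Clopper-Pearson for shares and exact conditional for ratios. For shares, each cell was thinned to 1000 UMIs. Names of clusters rest on a list of 137 markers (136 found), and the names are judged here and may differ from those of the study. Named were the 7 genes, the 4 highest and 4 lowest genes past the limit of each list in clusters 0 and 11 for each pair, or the leading ones of these, and the 3 genes most alike. Members and lists were chosen with earlier results of these data known. Python (3.11.15) and SciPy (1.17.1) were used, and the steps were tested on simulated data.

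As alternatives, size factors by median of ratios, totals that omit mitochondrial and ribosomal genes or rod markers, the mean over cells, cells with at least 1000 genes, cells with at most 10% mitochondrial UMIs, omission of the deepest 5% of cells, thinning, WT cells with Xist but without Y-linked UMIs, cells without an Lcn2 UMI, a pseudocount of 0.1, a 2-fold limit and minimums of 20 and 200 UMIs were tried. Added after seeing the data were WT cells with Y-linked UMIs but without Xist, cells of 5000 to 10000 UMIs and cells with more endothelial than mural marker UMIs.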

Additional observations from a re-analysis of the deposited data

Results flagged for a closer look

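Some genes were past the 1.5-fold limit in opposite directions in different clusters, and in each case the difference between the clusters was not tested. Fkbp5 for rd10-vehicle over WT had a log2 ratio of -0.83 in MG-like cells and -1.64 in endothelium-like cells, against 0.71 in cone-like cells. The second was -0.07 among cells of 5000 to 10000 UMIs, on 4 against 6 UMIs, and the third 0.04 after thinning. Tsc22d3 for rd10-TMB over WT had -0.69 in MG-like cells and 0.96 in ON cone bipolar-like cells, the latter 0.32 after thinning. Ddit4 for rd10-TMB over WT had -1.51 in MG-like and -0.86 in endothelium-like cells, against 0.84 in OFF cone bipolar-like cluster 7, which was 0.51 against the Xist-marked WT cells alone. The values in neurons rest on 64 and 21 UMIs for Fkbp5, 44 and 18 for Tsc22d3 and 51 and 38 for Ddit4, with the rd10 library first.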

How the results depend on the processing

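No paired analysis was possible because each group was 1 library. Single ratios stayed within their counting interval in 1407 cases and moved beyond it in 152. Of the ratios past the 1.5-fold limit, 4 cases changed sign: Ddit4 in cone-like cells for rd10-TMB over WT (0.78, thinned), Ddit4 in cluster 8 for rd10-TMB over rd10-vehicle (-0.48, thinned), and Zbtb16 (0.11) and Ddit4 (0.18) in endothelium-like cells for rd10-vehicle over WT among cells of 5000 to 10000 UMIs. Ratios inside the limit, such as Nr3c1 in MG-like cells, also changed sign and are not among the 4. Changes of scaling moved the median of all genes by at most 0.09. The cause of the shifts was not tested.

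In MG-like cells the median ratio of rd10-vehicle over WT was -1.01 with Y-marked WT cells. That of rd10-TMB over WT was -0.33 with size factors, -0.28 thinned, -0.59 with Xist-marked and -0.28 with Y-marked WT cells. With a 2-fold limit, 1 gene was lower in rd10-TMB than in WT and 0 higher than in rd10-vehicle.

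In endothelium-like cells the median of rd10-vehicle over WT was -0.17 as a mean over cells, -0.54 with low mitochondrial shares, -0.14 thinned, 0.18 at 5000 to 10000 UMIs and -0.55 in endothelium-marked cells. The count of higher genes was 0 without mitochondrial and ribosomal protein genes, with low mitochondrial shares, with Xist-marked WT cells, in endothelium-marked cells and at 2-fold, and 3 at 5000 to 10000 UMIs. That of lower genes was 0 at 5000 to 10000 UMIs and 1 at 2-fold or 200 UMIs. For rd10-TMB over WT the median was -0.15 as a mean over cells, -0.49 with low mitochondrial shares, 0.13 thinned, -0.52 with Xist-marked WT cells, 0.33 at 5000 to 10000 UMIs and -0.55 in endothelium-marked cells. There 1 gene was higher with size factors, as a mean over cells, without the deepest cells, thinned or with Xist-marked WT cells, and 2 at 5000 to 10000 UMIs or with Y-marked WT cells. The lower count was 1 thinned or at 200 UMIs and 0 at 2-fold. For rd10-TMB over rd10-vehicle, 0 were higher and 1 lower at 5000 to 10000 UMIs, 2 were higher at a minimum of 20 UMIs and 0 at 200.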
